A study of Homo sapiens with 9 samples.

Results

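Selenoproteins are proteins that carry the amino acid selenocysteine, and the genes described here are those that encode them together with the genes that make selenocysteine, insert it and bring selenium into the cell. Members were taken by gene name from a fixed list of 34 genes, and all 34 were found among the 58735 genes of the count table. GENCODE release 29 marks a selenocysteine codon in 25 of them, and the other 9 act in synthesis, insertion or uptake. SEPHS2 belongs to both kinds, since it encodes a selenoprotein that makes the selenium donor. After a filter on low counts 30 members were tested; GPX2, GPX6, DIO1 and DIO3 did not pass it.

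RNA was sequenced from OVCAR3, an established human ovarian cancer line, 72 h into culture. There were 3 groups of 3 libraries. The control carried a scramble short hairpin RNA (genotype label WT), and both other groups carried a hairpin against GPX3 (genotype label GPX3 knock-down), shRNA#76 or shRNA#78, called sh76 and sh78 here. All groups were grown in the same serum-supplemented medium with bovine insulin. Everything comes from 1 cell line, the hairpin sequences, vector and selection were not used here, and the labels do not say that replicates were separate transductions, so p-values measure the spread between these libraries.

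In selenoprotein mRNAs the codon UGA, normally a stop, is read as selenocysteine. The serine-charged selenocysteine tRNA is phosphorylated by PSTK and converted by SEPSECS with selenophosphate made by SEPHS2. EEFSEC, an elongation factor, delivers it to the ribosome, and SECISBP2 binds the SECIS element, a stem-loop in the 3′ end of the mRNA that marks the UGA for decoding. When decoding fails the UGA acts as a stop and can make an mRNA a substrate of nonsense-mediated decay. Selenoproteins include the glutathione peroxidases, which reduce peroxides with glutathione, the thioredoxin reductases, which keep thioredoxin reduced, the deiodinases of thyroid hormone metabolism, and a set of proteins in the endoplasmic reticulum.

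Few of these genes passed the test against scramble when the replicate number was left out of the model. Against scramble, 2 of the 30 tested members, GPX3 and SELENOM, were lower with sh76, where 3.58% of all genes tested were called and 2.16% were called lower. With sh78, 2 were lower, GPX3 and TXNRD1, where 4.41% of all genes were called and 2.56% were called lower. A gene is called at an adjusted p under 0.05 over all genes tested (edgeR). In this edgeR fit, which leaves out the replicate number, 0 of 30 members were called higher against scramble with either hairpin, where 1.43% and 1.85% of all genes were, and DESeq2 likewise called 0 higher. Without adjustment 9 members with sh76 and 8 with sh78 had a p under 0.05, beside 2959 and 2983 of the 17023 genes tested. GPX3 was the only member called with both hairpins in that fit. Same-numbered replicates varied together, and with the replicate number as a block 10 members were called with sh76 (1 higher, 9 lower) and 11 with sh78 (2 higher, 9 lower), where 20.4% and 19.9% of all genes were. Called with both hairpins in the block fit were GPX3, TXNRD1, SELENOP, SEPHS2 and SEPHS1, all lower, and SELENON, which was higher. SECISBP2L was the other member called higher there with sh78, and it was also called higher in the fit without the block when sh78 replicate 2 was left out. Between the hairpins, GPX3 and TXNRD1 were lower and SELENOM was higher with sh78, where 3.7% of all genes were called (1.72% of all lower, 1.97% higher).

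Total counts ran from 14652965 to 21327562 per library. Defining genes of ovarian carcinoma cells were present, with all 8 of the epithelial list (PAX8, EPCAM, KRT7, KRT8, KRT18, MUC16, MUC1 and WT1) counted in every library. Their summed level was 11460 to 12300 CPM (counts scaled to library size with TMM factors) with scramble, 10370 to 11280 with sh76 and 9445 to 10060 with sh78. The genes differed in direction. KRT8 had means of 5562, 4809 and 3878 CPM with scramble, sh76 and sh78, and KRT18, EPCAM and WT1 also had lower means with both hairpins. KRT7 (1286, 1519 and 1434 CPM) and MUC16 had higher means with both, and PAX8 and MUC1 moved in opposite directions with the 2 hairpins. Leukocyte genes (PTPRC, CD3E, CD14 and CD79A) summed to 1.221 to 3.181 CPM over all libraries. Endothelial genes (PECAM1, VWF and CDH5) summed to 6.233 to 10.8 CPM, and fibroblast genes (COL1A1, COL1A2, COL3A1, PDGFRB and DCN) to 27.56 to 54.97 CPM. CD3E and DCN were at 0 in all 3 scramble libraries. The part of these levels in the results was not tested.

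The codon itself is shown for a choice of the selenoprotein members, called or not, because it is the feature that defines them. Each line below gives 27 bases of the GENCODE 29 transcript (GRCh38), written 5′ to 3′ as DNA, with the selenocysteine codon in capitals.
GPX1: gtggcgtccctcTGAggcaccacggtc
GPX3: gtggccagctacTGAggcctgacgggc
GPX4: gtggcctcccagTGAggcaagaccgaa
TXNRD1: caggctggctgcTGAggttaagcccca
TXNRD2: gtgacaggctgcTGAgggtaagcgcca
SEPHS2: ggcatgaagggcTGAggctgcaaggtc
SELENOM: acctgcgggggaTGAcagctgaaccgc
SELENOH: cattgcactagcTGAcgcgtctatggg
The GPX3 codon lies on chromosome 5 at 151025469 to 151025471 (plus strand), and is codon 73 of 226 in the coding sequence. In all 5 glutathione peroxidases of the list, GPX2 and GPX6 included, the window opened with gtggc and the codon was followed by ggc. In all 3 thioredoxin reductases it was preceded by ggctgc, and it was the last codon but 1 of the coding sequence. SELENOM and SELENOH, small proteins with a thioredoxin-like fold, carry it early, at codon 48 of 145 and codon 44 of 122.

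The glutathione peroxidases contain the targeted gene. GPX3 (ENSG00000211445, chromosome 5, 151020438 to 151028993, plus strand, GRCh38) encodes a secreted peroxidase. It had 173, 109 and 117 CPM in scramble replicates 1 to 3, 56.8, 55.2 and 55.5 CPM with sh76, and 35.3, 28.4 and 28.3 CPM with sh78. The 3 groups did not overlap, and the scramble libraries were the most spread. The log2 fold change was −1.25 with sh76 (SE 0.16, adjusted p 0.00264 by edgeR) and −2.12 with sh78 (SE 0.17, adjusted p 0.000125 by edgeR), and over 16 alternatives it stayed between −1.38 and −1.02 and between −2.24 and −1.88. Per gene length it went from 41.9 ± 10.9 FPKM (SD, n = 3; fragments per kilobase scaled to library size) with scramble, close to SELENOH at 36 ± 5.02 FPKM, to 17.5 ± 0.272 FPKM with sh76 and 9.62 ± 1.24 FPKM with sh78. In bulk RNA a lower level per cell and fewer cells with the transcript cannot be told apart.

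The other peroxidases did not follow GPX3 downward by a comparable amount. GPX4 (chromosome 19, 1103926 to 1106791, plus strand), which reduces lipid hydroperoxides in membranes, was the most abundant member per length, at 118 ± 14.6, 98.4 ± 5.21 and 108 ± 6.14 FPKM with scramble, sh76 and sh78 (SD, n = 3). In CPM it read 224, 221 and 272 with scramble, 192, 198 and 212 with sh76, and 210, 233 and 215 with sh78. All 3 sh76 libraries were below all 3 scramble libraries, whereas sh78 overlapped scramble. Its log2 fold change with sh76 was −0.25 (SE 0.08, adjusted p 0.107 by edgeR). Adding the replicate number to the model as a block called it (edgeR adjusted p 0.00105), as did the fit with no low-count filter (0.0147). GPX1 (chromosome 3, 49357171 to 49358600), the cytosolic peroxidase, had 111, 97.6 and 105 CPM with scramble, 105, 100 and 105 with sh76, and 114, 115 and 109 with sh78. Its log2 fold changes were −0.01 (SE 0.07) and 0.11 (SE 0.07), and neither was called in the block fit. GPX2, a peroxidase of the gut epithelium, had 3 to 12 counts in a library. GPX6 had 0 counts in all 9 libraries, which allows up to 3 counts in each and covers counting error only.

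**Figure D1:**
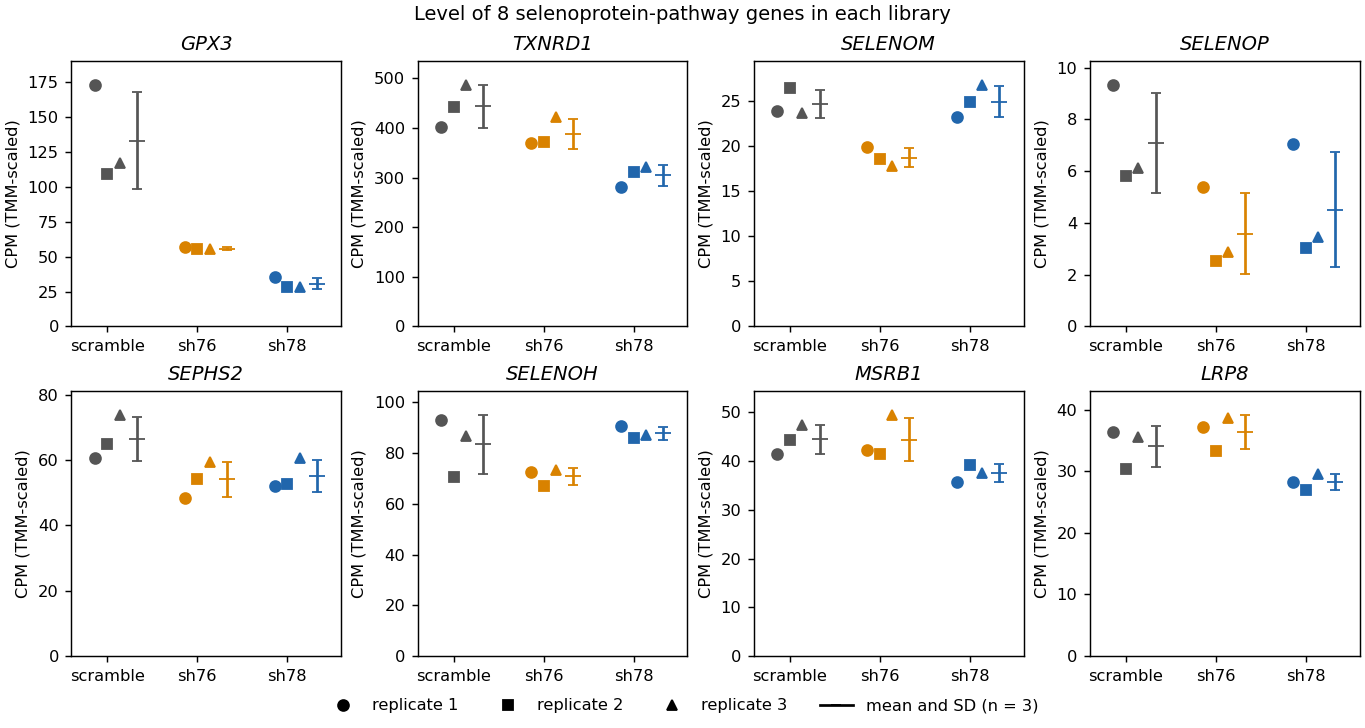
Level of 8 members in each library, in TMM-scaled CPM on axes that start at 0. Symbols mark replicates 1 to 3, and bars give the mean and SD of each group (n = 3). GPX3 separates all 3 groups, TXNRD1 is lowest with sh78 (280 to 322 CPM), and SELENOM is lowest with sh76 (17.8 to 19.9 CPM).

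Among the thioredoxin reductases only TXNRD1 was called, and without the block only with sh78. TXNRD1 (ENSG00000198431, chromosome 12, 104215779 to 104350305, plus strand) encodes the cytosolic enzyme. It had 401, 443 and 486 CPM with scramble, 369, 372 and 422 with sh76, and 280, 311 and 322 with sh78. All sh78 libraries lay below every scramble and sh76 library, and sh76 overlapped scramble. The sh78 log2 fold change was −0.54 (SE 0.08, adjusted p 0.00162 by edgeR), or 68.6% of the level in the control, and that call held in all 16 alternatives (log2 fold changes −0.61 to −0.47). With sh76 it was −0.19 (SE 0.08, adjusted p 0.229 by edgeR), which was called in the block fit alone (edgeR adjusted p 0.000571). The direct test of sh78 against sh76 gave −0.35 (SE 0.08, adjusted p 0.0281 by edgeR). That call was lost without sh76 replicate 2 or 3 or without sh78 replicate 1 or 2 (edgeR adjusted p 0.0684, 0.114, 0.107 and 0.0716), and on both FPKM scales (limma adjusted p 0.0762 and 0.0756). In all 3 same-numbered pairs sh78 was the lower of the hairpins for TXNRD1, by −0.40, −0.26 and −0.39 on the log2 scale.

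TXNRD2 and TXNRD3 were not called in any comparison, with or without the block. TXNRD2, the mitochondrial enzyme, had 33.7 ± 2.74, 30.6 ± 1.82 and 31.2 ± 1.19 CPM (SD, n = 3) in the order scramble, sh76 and sh78, and log2 fold changes of −0.14 and −0.11 (SE 0.09 each). TXNRD3, which carries an added glutaredoxin domain, had 11.3 ± 1.13, 12.4 ± 2.07 and 11.6 ± 1.44 CPM. The thioredoxin partners of these enzymes were measured as well, and so was GSR. TXN, the cytosolic thioredoxin, had log2 fold changes of −0.13 and −0.14 with sh76 and sh78, and GSR, which reduces glutathione, of −0.05 and −0.06, with no call with or without the block. TXN2, the mitochondrial thioredoxin, had log2 fold changes of 0.26 and 0.23 (SE 0.08 each, adjusted p 0.0853 and 0.117 by edgeR), and its libraries lay above scramble with both hairpins. The block fit called both (edgeR adjusted p 0.00228 and 0.00633).

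Deiodinases were near the detection limit. DIO2, which activates thyroid hormone, was the only one tested, at 3 ± 1.08, 3.74 ± 0.354 and 3.84 ± 0.763 CPM (SD, n = 3) with scramble, sh76 and sh78, and was not called. DIO1 had 0 to 7 counts in a library: 7 and 6 counts in sh78 replicates 1 and 3, and 0 or 1 in the other libraries. DIO3 had 0 counts in all 9 libraries. MSRB1, which reduces oxidized methionine, had 41.5, 44.4 and 47.5 CPM with scramble, 42.3, 41.5 and 49.5 with sh76, and 35.8, 39.3 and 37.5 CPM with sh78. The sh78 libraries lay below both other groups. The log2 fold change was −0.24 against scramble (SE 0.09, adjusted p 0.166 by edgeR) and −0.24 against sh76 (SE 0.09, adjusted p 0.179 by edgeR), and only the block fit called both (edgeR adjusted p 0.006 and 0.00657).

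The 7 selenoproteins of the endoplasmic reticulum, Golgi and secretory pathway were mostly level. With sh76, 5 of the 7 had a log2 fold change under 0.1 in size, and with sh78 also 5. With sh76 the exceptions were SELENOM and SELENON. SELENOM (ENSG00000198832, chromosome 22, 31104772 to 31120069, minus strand), an endoplasmic reticulum protein, was the only gene of this group called with sh76 in edgeR without the block. It had 23.9, 26.5 and 23.7 CPM with scramble, 19.9, 18.6 and 17.8 with sh76, and 23.3, 24.9 and 26.8 CPM with sh78. The sh76 libraries lay below all others, and sh78 overlapped scramble. Against scramble the sh76 log2 fold change was −0.40 (SE 0.10, adjusted p 0.0413 by edgeR) and that of sh78 0.02 (SE 0.10). The direct test between the hairpins gave 0.41 (SE 0.10, adjusted p 0.0338 by edgeR). Both calls stood close to the threshold. The sh76 call was lost without any one of the scramble or sh76 libraries or without sh78 replicate 2 (log2 fold changes −0.44 to −0.35, edgeR adjusted p 0.0546 to 0.152), and when only these 2 groups were fitted (0.063). The call between the hairpins was lost without any one of the 6 hairpin libraries (log2 fold changes 0.37 to 0.47, edgeR adjusted p 0.0509 to 0.131) and with only those groups (0.0504). The block fit called both (edgeR adjusted p 0.000534 and 0.000368).

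SELENON, a calcium-handling protein of the reticulum whose loss causes a congenital muscle disease, went the other way. It had 34.5, 44.8 and 48.5 CPM with scramble, 48.9, 50.9 and 57.5 with sh76, and 42.4, 48.1 and 53.8 with sh78. Replicate 1 was the lowest of each group, so the groups separated better within a replicate number than across it. The log2 fold changes of 0.30 and 0.17 (SE 0.12 each, adjusted p 0.219 and 0.545 by edgeR) were called in the block fit only (edgeR adjusted p 0.000305 and 0.0427). SELENOF, which binds a glycoprotein-folding enzyme of the reticulum, was among the most abundant members at 64.4 ± 2.9 FPKM with scramble (SD, n = 3). It read 147, 135 and 145 CPM with scramble, 142, 129 and 134 with sh76, and 129, 127 and 135 with sh78. Its log2 fold change with sh78 was −0.13 (SE 0.06, adjusted p 0.305 by edgeR, and 0.0366 in the block fit). SELENOK, SELENOS, SELENOT and SELENOI were not called with or without the block. Their 8 log2 fold changes against scramble ran from −0.09 to 0.05, with SEs of 0.06 to 0.10.

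**Figure D2:**
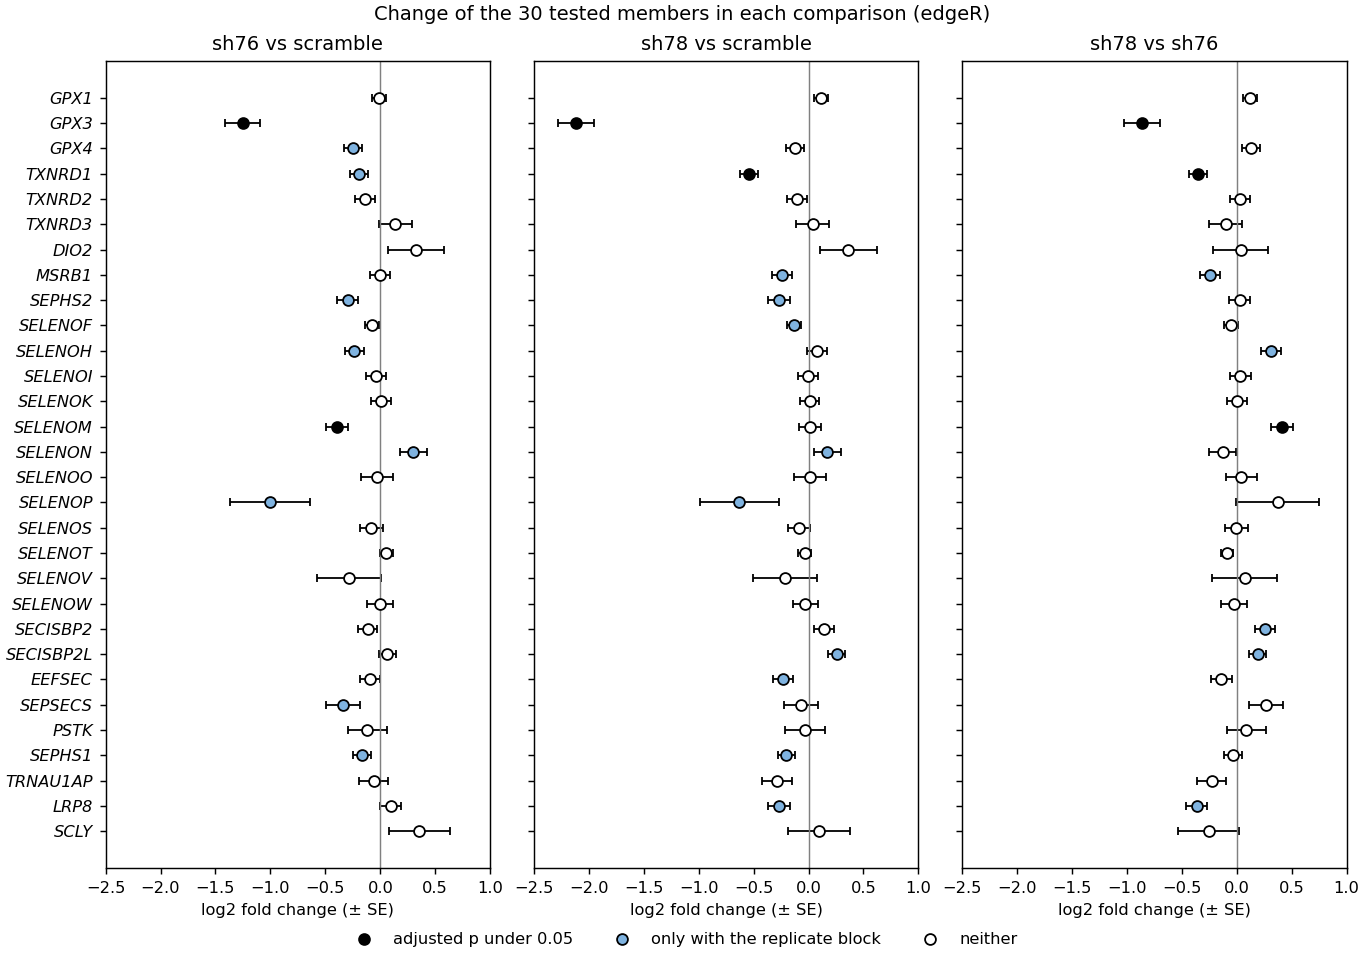
Log2 fold change with its standard error for the 30 tested members in 3 comparisons (edgeR). Black points passed an adjusted p under 0.05, blue points passed it only with the replicate number as a block, and white points passed in neither. Most points lie near 0, and GPX3 is the farthest left in each panel.

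Of the 5 remaining selenoproteins, none (0) was called against scramble in edgeR without the block. The unadjusted p was under 0.05 in 2 with sh76 and 0 with sh78, beside 2959 and 2983 of the 17023 genes tested. SELENOP (ENSG00000250722, chromosome 5, 42799880 to 42887392, minus strand) encodes the secreted selenium carrier of plasma, with 10 selenocysteine codons in its transcript. It was scarce, at 9.32, 5.81 and 6.14 CPM with scramble, 5.37, 2.52 and 2.86 with sh76, and 7.06, 3.03 and 3.44 with sh78. All sh76 libraries were below all scramble libraries, sh78 overlapped, and replicate 1 was the highest of each group. The log2 fold changes of −1.0 and −0.63 had SEs of 0.36 (edgeR adjusted p 0.178 and 0.423). With the block they were −1.02 and −0.69 (SE 0.17 each, adjusted p 1.08e-05 and 0.00201 by edgeR), and without the low-count filter the sh76 change was called too (edgeR adjusted p 0.000272). The ratio was below 1 in all 6 same-numbered pairs, with log2 values of −0.80, −1.20 and −1.10 for sh76 and −0.40, −0.94 and −0.84 for sh78. Each scramble library serves in a pair with both hairpins, so these 6 ratios are not independent. Exons of CCDC152, on the other strand, cover 25.5% of the exon bases of SELENOP. CCDC152 had a mean of 2.111 counts per library against 86.44 for SELENOP, and the libraries carry no strand.

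SELENOH, a nuclear DNA-binding redox protein, had 93.2, 70.7 and 86.6 CPM with scramble, 72.4, 67.1 and 73.2 with sh76, and 90.8, 85.8 and 87.1 CPM with sh78. The hairpin groups did not overlap each other, and both overlapped scramble. Between the hairpins the log2 fold change was 0.31 (SE 0.09, adjusted p 0.0767 by edgeR). It was called in the block fit (edgeR adjusted p 4.9e-05), by DESeq2 (adjusted p 0.0486), with no low-count filter (edgeR adjusted p 0.00719), with only the hairpin groups (0.0265), and without scramble replicate 1 (0.0377) or 2 (0.0302). With sh76 against scramble it was −0.24 (SE 0.09, adjusted p 0.18 by edgeR), called in the block fit (edgeR adjusted p 0.00197) and without scramble replicate 2 (0.0381). SELENOW, a small thioredoxin-fold protein, had 18.2 ± 0.824, 18.1 ± 2.23 and 17.9 ± 1.35 CPM, and SELENOO, a mitochondrial pseudokinase that transfers AMP, had 20.9 ± 2.29, 20.5 ± 3.33 and 21 ± 3.36 CPM (SD, n = 3) in the same order of groups. Neither was called with or without the block. SELENOV had 9.04 ± 2.84, 7.39 ± 2.29 and 7.83 ± 2.6 CPM and was not called either.

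**Figure D3:**
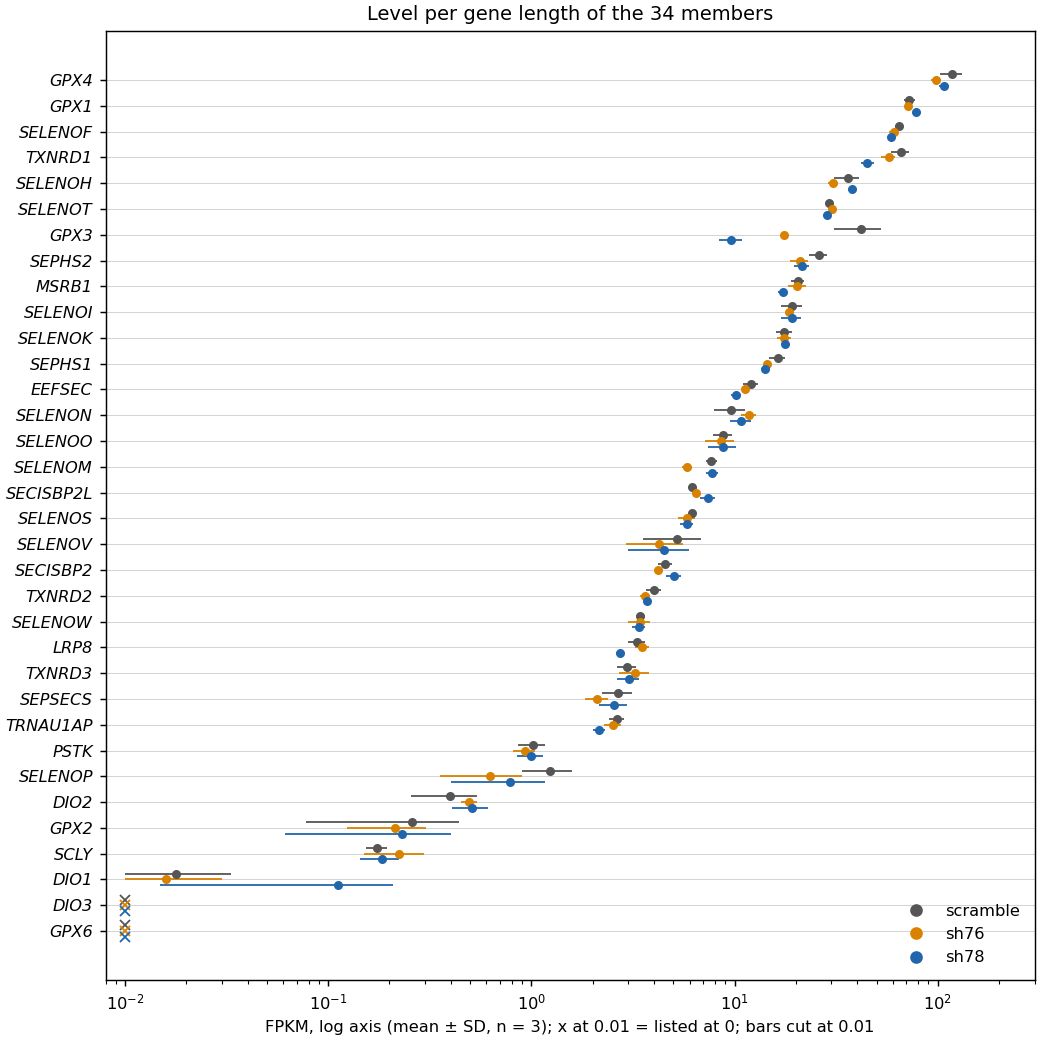
Level of the 34 members per gene length, as the mean and SD of the deposited FPKM in each group (n = 3) on a log axis, ordered by the mean over all libraries. Crosses mark genes listed at 0 and bars are cut at 0.01. GPX4, GPX1, SELENOF and TXNRD1 are at the top, DIO3 and GPX6 are listed at 0, and GPX3 shows the widest separation of groups among the abundant members.

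The enzymes of selenocysteine synthesis were next. None of the 5 (0) was called against scramble in edgeR without the block. An unadjusted p under 0.05 was seen in 2 with sh76 and 2 with sh78, beside 2959 and 2983 of the 17023 genes tested. SEPHS2 (chromosome 16, 30443631 to 30446181), the selenophosphate synthetase, had 60.7, 64.8 and 73.8 CPM with scramble, 48.5, 54.3 and 59.4 with sh76, and 52.1, 52.5 and 60.7 CPM with sh78. The sh76 libraries lay below scramble, and sh78 touched it, since sh78 replicate 3 and scramble replicate 1 both read 60.7 CPM. The log2 fold changes were −0.30 and −0.27 (SE 0.10 each, adjusted p 0.119 and 0.155 by edgeR). Within replicate numbers they were −0.32, −0.26 and −0.31 for sh76 and −0.22, −0.30 and −0.28 for sh78. The block fit called both (edgeR adjusted p 8.12e-05 and 0.000383), and the fit with no low-count filter called the sh76 change (0.0283). SEPHS1, its relative without selenocysteine, had 70.1, 58.6 and 62.5 CPM with scramble, 57.1, 56.2 and 56.8 with sh76, and 58, 55.6 and 52.5 with sh78. Both hairpin groups lay below scramble, by log2 fold changes of −0.17 and −0.20 (SE 0.08 each, adjusted p 0.291 and 0.193 by edgeR, and 0.0367 and 0.0101 in the block fit).

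SEPSECS had 17.4, 13.7 and 19.2 CPM with scramble, 14.3, 11.3 and 14.2 with sh76, and 17.7, 13.1 and 17.1 with sh78. Replicate 2 was the lowest in each group. The sh76 log2 fold change was −0.34 (SE 0.16, adjusted p 0.28 by edgeR, and 0.0114 in the block fit), and with sh78 −0.07 (SE 0.16). PSTK, the kinase of the charged tRNA, had 6.25 ± 0.949, 5.75 ± 0.705 and 6.12 ± 0.879 CPM, and SCLY, a lyase that recycles selenium from free selenocysteine, had 2.05 ± 0.25, 2.64 ± 0.876 and 2.17 ± 0.476 CPM (SD, n = 3). Neither was called with or without the block.

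The 4 insertion factors differed in direction. SECISBP2L, a paralogue of SECISBP2, had 56.7, 53 and 52.6 CPM with scramble, 57.4, 56.4 and 55.9 with sh76, and 67.7, 58 and 68.1 CPM with sh78. The sh78 libraries were above both other groups. The log2 fold change was 0.26 with sh78 (SE 0.08, adjusted p 0.0862 by edgeR), called in the block fit (edgeR adjusted p 0.00102) and without sh78 replicate 2 (0.32, edgeR adjusted p 0.0445). SECISBP2 had 47.6, 46.6 and 40.9 CPM with scramble, 40.5, 43.8 and 40.2 with sh76, and 52.7, 44.6 and 51.2 with sh78. It was above sh76 in every sh78 library, by a log2 fold change of 0.25 (SE 0.09, adjusted p 0.148 by edgeR, and 0.00527 in the block fit).

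EEFSEC had 30.8, 30.6 and 26.4 CPM with scramble, 27.7, 27.4 and 27.2 with sh76, and 25.7, 25.6 and 23.3 CPM with sh78. The sh78 libraries were the lowest. The log2 fold change with sh78 was −0.23 (SE 0.09, adjusted p 0.208 by edgeR, and 0.0271 in the block fit). Exons of RUVBL1 on the other strand cover 15.3% of the exon bases of EEFSEC, and RUVBL1 had a mean of 3466 counts per library against 472.3; its part in the EEFSEC counts was not tested. TRNAU1AP, a protein that binds the selenocysteine tRNA, had 11.4 ± 0.932, 10.9 ± 1.1 and 9.36 ± 0.674 CPM (SD, n = 3) and was not called with or without the block. Its sh78 libraries also lay below both other groups, with a log2 fold change of −0.29 against scramble (SE 0.13, adjusted p 0.289 by edgeR).

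Selenium uptake was represented by LRP8 (chromosome 1, 53242364 to 53328070), a receptor for SELENOP. It had 36.3, 30.3 and 35.6 CPM with scramble, 37.2, 33.3 and 38.7 with sh76, and 28.2, 27 and 29.6 CPM with sh78. The sh78 libraries lay below both other groups. Between the hairpins the log2 fold change was −0.36 (SE 0.10, adjusted p 0.0531 by edgeR). It passed the threshold in the block fit (edgeR adjusted p 0.00013), by DESeq2 (adjusted p 0.025), with no low-count filter (edgeR adjusted p 0.0246) and without scramble replicate 1 (0.046) or 2 (0.0498). Against scramble it was −0.27 with sh78 (SE 0.10, adjusted p 0.155 by edgeR, and 0.00513 in the block fit) and 0.10 with sh76 (SE 0.10).

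Seen over all 30 tested members, the 2, 2 and 3 calls stood beside shares of 3.58%, 4.41% and 3.7% of the 17023 genes tested, and 1 of the calls in each comparison was GPX3, the target. In the block fit 10, 11 and 8 members were called, where the share over all genes was 20.4%, 19.9% and 18.3%. Groups did not overlap in 7, 9 and 11 of the 30 members, against 22.5%, 21.5% and 21.8% of all genes. The median log2 fold change of the 30 members was −0.08 with sh76, with 22 below 0, and −0.05 with sh78, with 19 below 0. Over all genes tested the medians were 0.0064 and 0.0063, with 48.6% and 48.7% of genes below 0. Both comparisons share the scramble libraries.

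**Figure D4:**
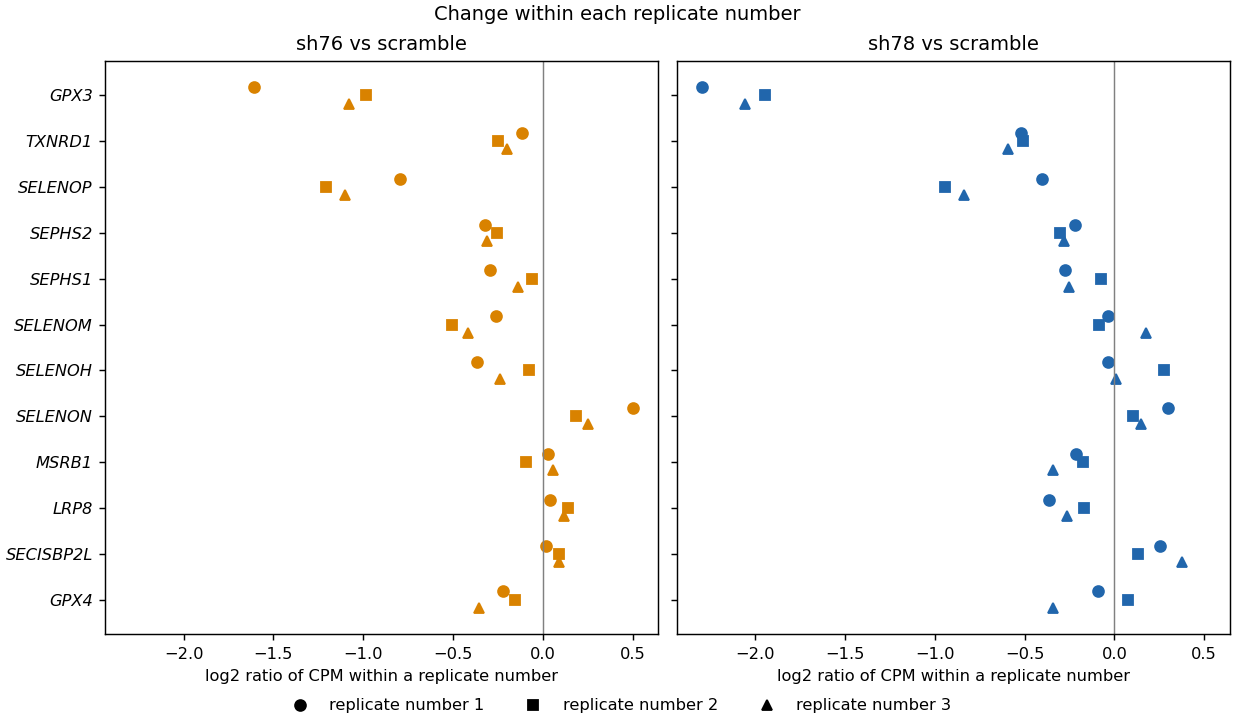
Log2 ratio of CPM to the scramble library of the same replicate number, for 12 members. Symbols mark the replicate numbers. GPX3, TXNRD1, SELENOP, SEPHS2 and SEPHS1 lie left of 0 in all 6 pairs, and both hairpins share the same scramble libraries. SELENOM, SELENOH and GPX4 lie left of 0 in all 3 pairs with sh76 only.

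The position of the selenocysteine codon was compared across the 25 selenoproteins, since a stop codon more than about 50 bases before the last exon junction is the usual signal for nonsense-mediated decay. Of the 36 codons in the 25 chosen transcripts, 22 genes have 1 each, and DIO2, SELENON and SELENOP have 2, 2 and 10. The first codon lies more than 50 bases before the last junction in 15 genes, within that distance of it or after it in 8, and DIO3 and SEPHS2 have a single exon. GPX1, GPX3 and GPX4 are in the first class, at 105, 240 and 342 bases, as are SELENOH (136), SELENOM (135), TXNRD2 (71), SELENOT (470) and SELENOW (243). TXNRD1 is in the second, with the codon 63 bases after the junction. Of the first class 12 were tested, with a median log2 fold change of −0.19 with sh76 and −0.07 with sh78. GPX3 and SELENOM of this class were called lower with sh76, and GPX3 with sh78. GPX3 is the target of both hairpins, and it is included in the medians and counts of this class. All 8 of the second class were tested, with medians of −0.02 and 0.00, and TXNRD1 was called lower with sh78. The 9 members with no selenocysteine codon had medians of −0.09 and −0.07, with 0 called in edgeR without the block. There an unadjusted p under 0.05 was seen in 6 and 1 of the first class, 1 and 2 of the second and 1 and 4 of these 9. The 1 of the first class with sh78 was GPX3 itself. Over all genes it was seen in 2959 and 2983 of 17023. With the block, 6 and 4 of the 12 in the first class were called with sh76 and sh78. In the second class 1 and 2 of 8 were called, and 2 and 4 of these 9, where 20.4% and 19.9% of all genes were. These are descriptions, with no test of one class against another. The base after the codon was g in 15 of the 36 codons, c in 12, a in 5 and t in 4.

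**Figure D5:**
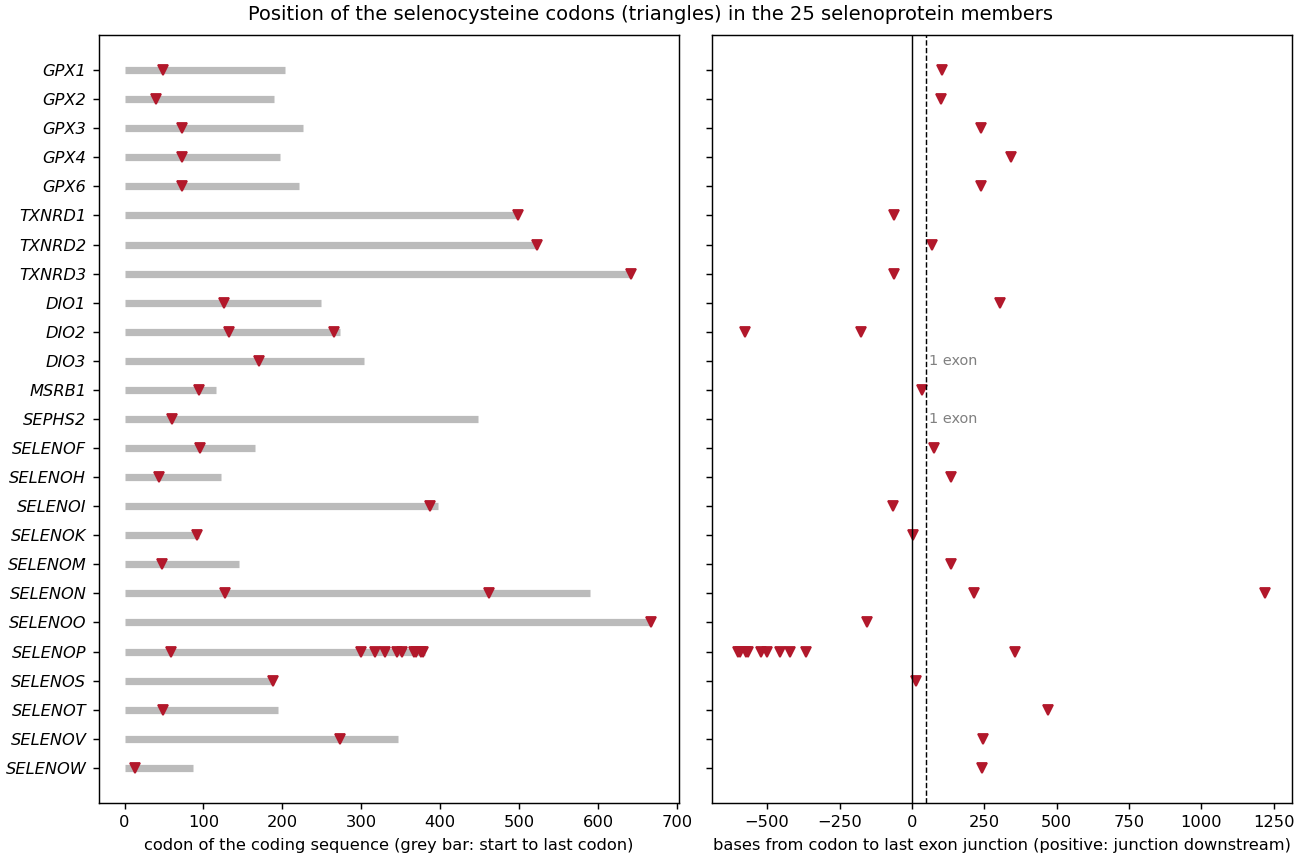
Selenocysteine codons (triangles) of the 25 selenoprotein genes in GENCODE 29 transcripts. The left panel shows the codon number along the coding sequence (grey bar), and the right panel shows the distance in bases to the last exon junction, positive where the junction is downstream, with a dashed line at 50 bases. Codons near the end of the coding sequence, as in TXNRD1, TXNRD2 and TXNRD3, contrast with early ones, as in SELENOW at codon 13 of 87.

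Other genes of the pathway were taken from a list of 26, of which 22 were tested. The sh76 comparison called 1 of them up and 1 down, the sh78 comparison 2 up and 1 down, and the hairpin comparison 1 up, where 3.58%, 4.41% and 3.7% of all genes were called. In the block fit 7, 5 and 3 of the 22 were called, beside 20.4%, 19.9% and 18.3% of all genes. By direction these were 4 higher and 3 lower with sh76, 3 and 2 with sh78, and 3 and 0 between the hairpins. They include genes called only in that fit, most of which are not named here. LRP2 (megalin), a receptor that takes up SELENOP among many ligands, had 125, 112 and 111 CPM with scramble, 150, 144 and 164 with sh76, and 178, 169 and 196 CPM with sh78. The 3 groups did not overlap. LRP2 rose by log2 fold changes of 0.39 (SE 0.08, adjusted p 0.0104 by edgeR) and 0.64 (SE 0.08, adjusted p 0.000287 by edgeR). SELENBP1, a selenium-binding methanethiol oxidase that is not a selenoprotein, had 32.1, 31.3 and 31.3 CPM with scramble, 29.4, 26.5 and 30.2 with sh76, and 47, 46.7 and 54.4 with sh78. It was higher with sh78 than with scramble by 0.64 (SE 0.09, adjusted p 0.000945 by edgeR) and than with sh76 by 0.78 (SE 0.09, adjusted p 0.000322 by edgeR).

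SARS, the seryl-tRNA synthetase that charges the selenocysteine tRNA with serine, fell by 0.30 on the log2 scale with each hairpin (edgeR adjusted p 0.0239 and 0.0226). Its levels were 182 ± 10.2, 148 ± 9.62 and 149 ± 5.69 CPM (SD, n = 3) in the order scramble, sh76 and sh78. The cysteine-containing relatives GPX8, MSRB2 and MSRB3 were not called with or without the block, and GPX5 and GPX7 did not pass the filter. Of the factors of nonsense-mediated decay, UPF1, UPF2, UPF3B, SMG1 and SMG6 had log2 fold changes of −0.11 to 0.17 with sh76 and −0.15 to 0.09 with sh78. They were not called with or without the block, and against scramble each had an unadjusted p above 0.05 in edgeR.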

How the data were processed

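Poly-A RNA was sequenced from 9 OVCAR3 libraries with non-directional preparation, per the labels' protocols. The authors deposited raw counts per gene and FPKM values (per kilobase of gene length, with the formula not given in the sources used here), 1 column per library. HISAT2 2.0.5, featureCounts 1.5.0-p3 and build hg38 are named in the submitters' processing notes, without their roles or settings. All 58735 genes matched GENCODE 29 in name, start and end. Every value column was used (0 unused).

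The count tests ran in edgeR 4.0.16 (R 4.3.3). Genes passed filterByExpr (minimum count 10, minimum total 15), which kept 17023. Libraries were scaled with TMM, and robust quasi-likelihood tests used 1 coefficient per group over all 9 libraries, with 3 comparisons. A gene was called at a Benjamini-Hochberg adjusted p under 0.05 over all genes tested. The SE is the size of the log2 fold change divided by the square root of the F statistic. The steps were also run on simulated counts with a single spread for all genes, changes in sh76 only and no effect of the replicate number. That run does not bear on how the block changes the calls. Alternatives used DESeq2 1.42.0 and limma 3.58.1 on log2(FPKM + 1) and log2(FPKM + 0.1). FPKM compares levels between genes, and CPM compares 1 gene between groups.

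The labels number replicates 1 to 3 in each group. Deviations from group means correlated across genes with an r of 0.14 to 0.39 in the 9 same-numbered pairs, and of −0.31 to 0.064 in the 18 others, so the numbers were read as pairing libraries. The block fit has 4 residual degrees of freedom in place of 6. Replicates of a group differed beyond counting noise (chi-square per degree of freedom 4.9 to 11.068 in 9 pairs), so each was counted as 1 sample. How shared reads were counted is not given in the sources used here: GPX1P1, the most counted pseudogene copy of a member, had a mean of 27.33 counts against 1851 for GPX1.

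The transcript shown for each selenoprotein was the APPRIS principal one with a selenocysteine feature, then the one with most such codons and the longest coding sequence. Protein sequences were not used here. Values in every library are given for GPX3, for each member called in any comparison with or without the block, and for the 5 members with the highest mean FPKM; the other members are given by group. The other pathway genes are named with values where called without the block, and otherwise counted, with a few named beside a member. Of those called only with the block, TXN2 alone is named, so a gene left unnamed is not thereby unchanged. Members, lists and rules were chosen with earlier results of these data known. 1 gene of the pathway list is not reported here.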

Additional observations from a re-analysis of the deposited data

Results flagged for a closer look

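The results singled out here are the members that differed between the 2 hairpins when sh78 was tested directly against sh76. GPX3 was lower with sh78 by a log2 fold change of −0.86 (SE 0.16, adjusted p 0.0194 by edgeR). That call was lost without any one of the 3 sh76 libraries or without sh78 replicate 2 or 3 (edgeR adjusted p 0.0604 to 0.0843), while the log2 fold change stayed between −0.98 and −0.80 in all alternatives. TXNRD1 was lower with sh78 (log2 fold change −0.35) and SELENOM was higher (0.41), and both calls were lost on leaving out single hairpin libraries. Groups of 3 were not searched for outlying libraries.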

How the results depend on the processing

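Of the 1440 member fold changes recomputed under 16 alternatives, 1378 kept their direction or stayed uncalled, 36 passed the threshold only in the alternative (22 of them with the replicate number as a block), 26 lost their call and 0 called values changed sign; 71 values called in neither fit changed sign. The block moved the counts most: 3467, 3388 and 3117 genes were called for sh76, sh78 and sh78 against sh76, in place of 610, 750 and 629, and 10, 11 and 8 members in place of 2, 2 and 3. With no low-count filter 1149, 1212 and 1125 genes were called, with 5 members for sh76 and 5 between the hairpins. DESeq2 called 5 members between the hairpins, and fitting only the 2 groups compared left 1 member for sh76. Leaving out 1 library gave 237 to 655 genes and 1 to 2 members for sh76, 418 to 810 genes and 2 to 3 members for sh78, and 273 to 780 genes and 0 to 5 members between the hairpins. The count fell by over 1.5 times for sh76 without scramble replicate 2 or 3 or sh76 replicate 2 or 3 (313, 333, 237 and 339 genes), for sh78 without scramble replicate 2 or 3 or sh78 replicate 2 or 3 (418, 458, 469 and 453), and between the hairpins without sh76 replicate 2 or 3 or any sh78 library (273, 368, 344, 375 and 351). SCLY, DIO2, SELENOP and PSTK rest on 24 to 145 counts per library and SELENOV on 86 to 210, which limits their precision.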

Other observations

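Some members varied with the replicate number, and SELENOV and SELENOO varied more with it than with the hairpin. SELENOV had 6.43, 8.63 and 12.1 CPM in scramble replicates 1 to 3, 5.37, 6.93 and 9.88 with sh76, and 6.79, 5.91 and 10.8 with sh78, with replicate 3 the highest in each group. SELENOP and SELENOO were highest in replicate 1 of each group, and SELENOO had 23.4, 24.3 and 24.6 CPM there against 18 to 20.4 CPM in the other 6 libraries.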
